A study of Mus musculus with 12 samples.

Results

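Ubiquitin-conjugating (E2) enzymes and ubiquitin-specific proteases (USPs) were followed in mouse oocytes that lack either or both mitofusins, the GTPases that fuse outer mitochondrial membranes. The genes were chosen by name, as the symbols of the deposited count table that begin with Ube2 or with Usp and a digit. This gave 79 of the 11385 genes in the table, of which 31 are Ube2 genes and 48 are Usp genes. Total RNA was sequenced in 12 libraries, 3 from each of 4 genotypes. The genotypes were Mfn1&2-/- (both mitofusin genes knocked out), Mfn2-/-, Mfn1-/- and WT, all labelled C57BL/6J. Each library came from a pool of 50 germinal-vesicle (GV) oocytes, which are arrested in meiotic prophase. They were taken from hormonally unprimed females of 21 to 23 days and stripped of their cumulus cells by pipetting. The sources used here do not say how the knockouts were made. The labels do not say whether pools came from separate animals, so p-values measure the spread between pools, which may be technical.

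An E1 enzyme activates ubiquitin, an E2 carries it on a catalytic cysteine, and an E3 ligase passes it from the E2 to a substrate. USPs form the largest family of deubiquitinases and cut ubiquitin off again. In oocytes, which do not transcribe through maturation, timed protein destruction through the anaphase-promoting complex (APC/C) drives the meiotic divisions, and ubiquitin on outer mitochondrial membrane proteins, mitofusins among them, marks mitochondria for removal. Of the 31 Ube2 genes, 25 encode ubiquitin E2 enzymes, 2 encode E2 enzymes for NEDD8 (Ube2f, Ube2m) and 2 encode variants without the catalytic cysteine (Ube2v1, Ube2v2). Ube2cbp encodes an E2-binding protein and not an E2. Of the Usp genes, Usp6nl encodes a Rab GTPase activator and not a deubiquitinase, and Usp39 encodes a splicing factor whose protease domain lacks the active-site residues. The GENCODE vM21 annotation holds 93 protein-coding genes with names of this kind (37 Ube2, 56 Usp), and 14 of them, including Usp18, Ube2l6 and Ube2j2, were not analysed here.

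Promoter sequences of 3 genes are shown because these genes carry the changes described below: the effect of Mfn2 loss on Usp8 and Usp12 differed with the presence of Mfn1, and Ube2t was lower in Mfn1&2-/- oocytes than in each other group. Each is the 250 bases before the transcription start in RefSeq (GRCm38.p6), 5′ to 3′ on the gene's strand. Capitals mark matches on either strand to the CCAAT box (CCAAT) or the GC box (GGGCGG), the promoter motifs of the NF-Y and Sp1 factors, and matches that overlap run together.
Usp8, chr2:126707078-126707327, plus strand: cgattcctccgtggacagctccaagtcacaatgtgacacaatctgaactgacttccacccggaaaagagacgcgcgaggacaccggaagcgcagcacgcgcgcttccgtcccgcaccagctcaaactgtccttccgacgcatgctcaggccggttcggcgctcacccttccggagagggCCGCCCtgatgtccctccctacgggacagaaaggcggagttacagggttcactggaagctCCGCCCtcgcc
Usp12, chr5:146794957-146795206, minus strand: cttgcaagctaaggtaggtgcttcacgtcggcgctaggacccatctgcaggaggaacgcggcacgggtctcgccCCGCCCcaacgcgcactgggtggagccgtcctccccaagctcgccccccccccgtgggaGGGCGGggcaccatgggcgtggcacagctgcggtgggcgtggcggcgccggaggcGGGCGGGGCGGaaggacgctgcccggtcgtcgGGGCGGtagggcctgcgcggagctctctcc
Ube2t, chr1:134962315-134962564, plus strand: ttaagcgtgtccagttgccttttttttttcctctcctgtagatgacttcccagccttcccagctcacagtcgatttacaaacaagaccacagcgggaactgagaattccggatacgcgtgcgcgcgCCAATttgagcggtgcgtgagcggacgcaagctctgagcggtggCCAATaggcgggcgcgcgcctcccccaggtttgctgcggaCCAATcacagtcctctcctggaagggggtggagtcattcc

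The Usp8 promoter held 2 GC boxes and the Usp12 promoter 5, both without a CCAAT box, whereas the Ube2t promoter held 3 CCAAT boxes and no GC box. Among all 32851 RefSeq promoter windows of this length, 33.8% held a CCAAT box and 32.7% a GC box. Neither an E-box (CACGTG, in 6.02% of all windows) nor a cyclic AMP response element (TGACGTCA, in 1.55%) was found in the 3 windows. Their GC content was 62.8% (Usp8), 74.8% (Usp12) and 57.6% (Ube2t), against a mean of 53.2% over all windows. These matches describe letters in the windows only. A RefSeq promoter was at hand for 61 of the 79 genes.

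Libraries held 11575357 to 16024893 counts, so that 3 counts, the limit a count of 0 allows, stand at 0.188 to 0.253 CPM (counts scaled for library size with TMM factors). Levels below are CPM with the SD over 3 libraries. In bulk RNA, fewer cells of a type and less RNA per cell cannot be told apart. The knockouts showed in the targeted genes: Mfn1 stood at 7.19% of WT in Mfn1&2-/- oocytes and 6.48% in Mfn1-/- oocytes, and Mfn2 at 14.1% in Mfn1&2-/- and 14.6% in Mfn2-/-. All 16 oocyte markers were measured, and their summed level was 17850 to 20415 CPM in Mfn1&2-/-, 21193 to 23840 in Mfn2-/-, 17290 to 19992 in Mfn1-/- and 16324 to 19763 in WT libraries. Of the 15 granulosa markers 11 were measured (Amh, Amhr2, Foxl2 and Cyp11a1 were not analysed here), with sums of 489.5 to 514.2 CPM in Mfn1&2-/-, 441.6 to 542.2 in Mfn2-/-, 499.0 to 513.8 in Mfn1-/- and 515.3 to 893.3 in WT libraries. Serpine2 alone stood at 275.9 to 370.7 CPM over the 12 libraries. At an adjusted p below 0.05 in edgeR, 4 of the 11 were lower in Mfn2-/- against WT (Inha, Inhba, Inhbb, Hsd17b1). In Mfn1&2-/- against WT 2 were lower (Inha, Kitl), and 0 were higher in either comparison. Kitl stood at 3.96, 3.35 and 4.92 CPM in Mfn1&2-/- and at 10.9, 14.7 and 13.3 CPM in WT libraries. Inha stood at 8.55, 19.8 and 77.9 CPM in WT replicates 1, 2 and 3, and Inhba at 1.84, 5.31 and 71.3 CPM. In the same order Inhbb stood at 4.47, 10.6 and 155.4 CPM and Hsd17b1 at 3.27, 1.52 and 15.2 CPM. The highest granulosa sum is that of WT replicate 3, which stands apart in the sum and in these 4 genes. Of 5 theca markers only Hsd3b1 was measured. It reached 44.9 CPM in the same library and was lower by the same test in Mfn1&2-/- and Mfn2-/- against WT. The 3 measured of 8 endothelial, blood and immune markers summed to 165.3 to 191.5 CPM in Mfn1&2-/-, 146.9 to 153.5 in Mfn2-/-, 125.8 to 146.5 in Mfn1-/- and 138.8 to 145.4 in WT libraries. Among them Pecam1 was higher by the same test in Mfn1&2-/- against WT (log2 fold change 0.46, adjusted p = 0.0171). It was also higher against Mfn1-/- (0.46, adjusted p = 0.0155) and Mfn2-/- oocytes (0.33, adjusted p = 0.0482). The part of these differences in the results was not tested, and Ube2 and Usp calls that rest on WT replicate 3 are given with and without it. The marker calls were not refitted without it.

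**Figure D1:**
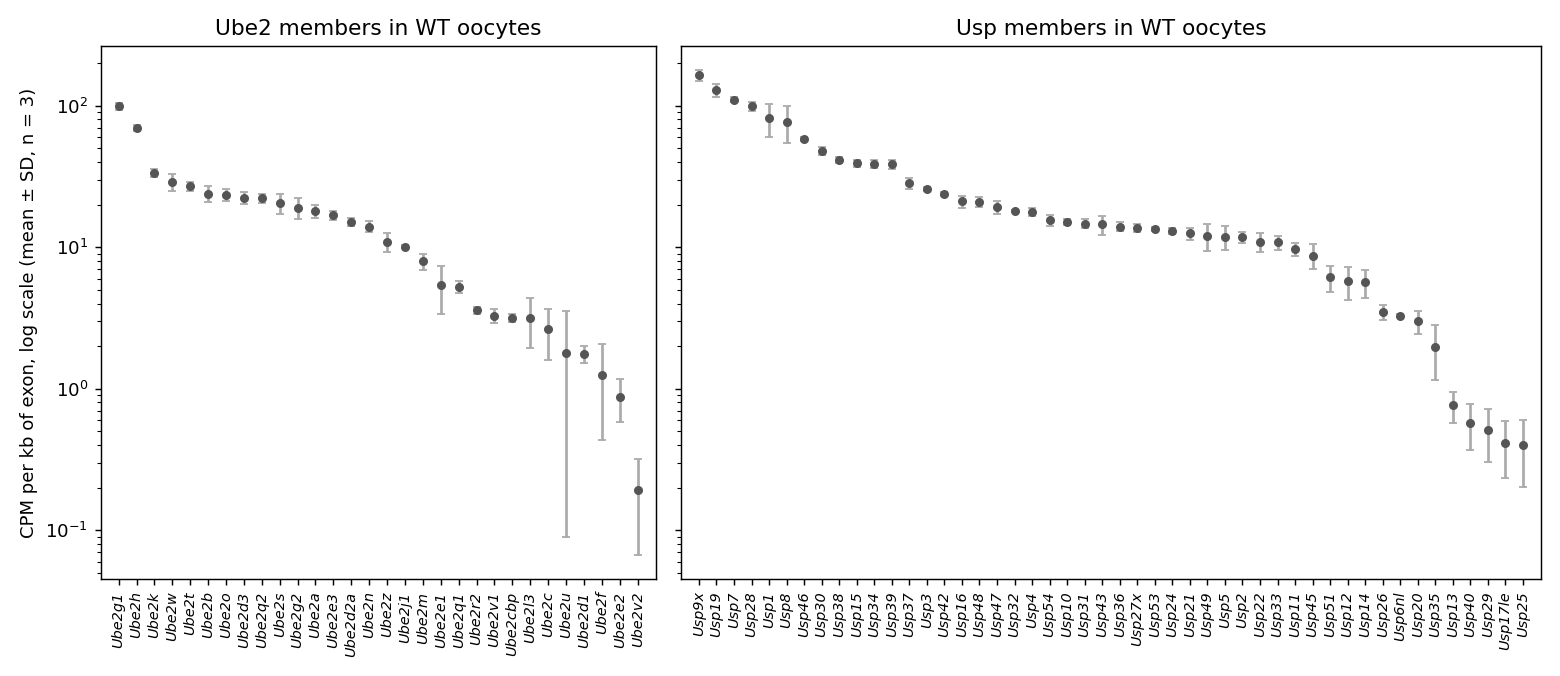
Levels of Ube2 genes (left) and Usp genes (right) in WT oocytes, as CPM per kb of exon on a log axis; points are means and bars SD over 3 libraries, with the lower bar of Ube2u, whose SD nearly equals its mean, cut slightly short. Ube2g1 (98.7 CPM per kb) and Usp9x (163.5 CPM per kb) lead their families, and both families spread over more than 2 orders of magnitude.

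GV oocytes carried most of the USP family at appreciable levels. In WT libraries the median Usp gene stood at 123.1 CPM and the median Ube2 gene at 43.7 CPM, against 24.2 CPM over all genes tested. Of the Usp genes, 27 exceeded 100 CPM and 5 stayed below 10 CPM; of the Ube2 genes, 9 and 7 did so. Per kb of exon, the medians of the families were close, at 14.2 CPM per kb for Usp and 13.3 CPM per kb for Ube2 genes. No median per kb was computed over all genes, so the comparison with all genes does not allow for length.

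Usp9x led the USPs per length. It encodes a large X-linked deubiquitinase known in Drosophila, as fat facets, for a maternal role in the egg. In WT oocytes Usp9x stood at 163.5 ± 14.7 CPM per kb (2461 ± 221 CPM, n = 3), above 99.9% of all genes by CPM. Usp19, which encodes a deubiquitinase with an ER-anchored form, followed at 128.7 ± 13.0 CPM per kb. Usp7, whose protein stabilises Mdm2, stood at 110.2 ± 4.07 CPM per kb. Usp28 (a deubiquitinase of Myc) at 99.0 ± 7.56 CPM per kb and Usp1 (which reverses monoubiquitination of Fancd2) at 81.5 ± 21.6 CPM per kb came next. Usp7 and Usp28, Usp28 and Usp1, and Usp1 and the gene next in order, Usp8 (76.8 ± 22.3 CPM per kb), did not differ beyond their spread. Usp25 was lowest at 0.402 ± 0.199 CPM per kb, but did not differ beyond the spread from Usp17le at 0.412 ± 0.177 CPM per kb. By CPM Usp17le was lowest, at 0.819 CPM.

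Among the E2 genes Ube2g1, which encodes an E2 of cullin-RING ligases, led with 98.7 ± 6.32 CPM per kb in WT oocytes. Ube2h, the E2 of the CTLH ligase that acts in maternal protein turnover, followed with 70.1 ± 3.45 CPM per kb. Ube2k (a builder of ubiquitin chains), Ube2w (which ubiquitinates N termini) and Ube2t (the E2 of the Fanconi anaemia pathway) stood at 33.4 ± 2.23, 28.9 ± 4.02 and 26.9 ± 1.86 CPM per kb, with no gap beyond the spread between neighbours. Ube2v2, a catalytically inactive partner of Ube2n, was lowest at 0.193 CPM per kb. By CPM, not divided by length, Ube2d3 led with 547.4 ± 54.3 CPM, 18.5% of the Ube2 sum in WT. Ube2g1 stood at 452.2 ± 29.0 CPM. The annotated exons span 24.5 kb for Ube2d3 and 4.58 kb for Ube2g1, so the order per kb depends on the annotated exon length.

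The summed output of the families was alike in the 4 genotypes. Usp genes summed to 11185 ± 435 CPM in Mfn1&2-/-, 11162 ± 452 in Mfn2-/-, 10917 ± 681 in Mfn1-/- and 11187 ± 519 in WT libraries. Ube2 genes summed to 2976 ± 89.6, 2979 ± 35.5, 2991 ± 98.9 and 2951 ± 40.0 CPM in the same order of genotypes. The sums differed by less than the spread between libraries. Usp9x alone gave 21.0% of the Usp sum in Mfn1&2-/-, 22.0% in Mfn2-/-, 20.4% in Mfn1-/- and 22.0% in WT oocytes.

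A gene was called changed at an adjusted p below 0.05 in edgeR's quasi-likelihood test, with Benjamini-Hochberg adjustment over all 11385 genes; values after ± for log2 fold changes are standard errors. Of the 79 genes, 13 were called in at least 1 of 6 comparisons (4 Ube2, 9 Usp) and 66 in none.

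**Figure D2:**
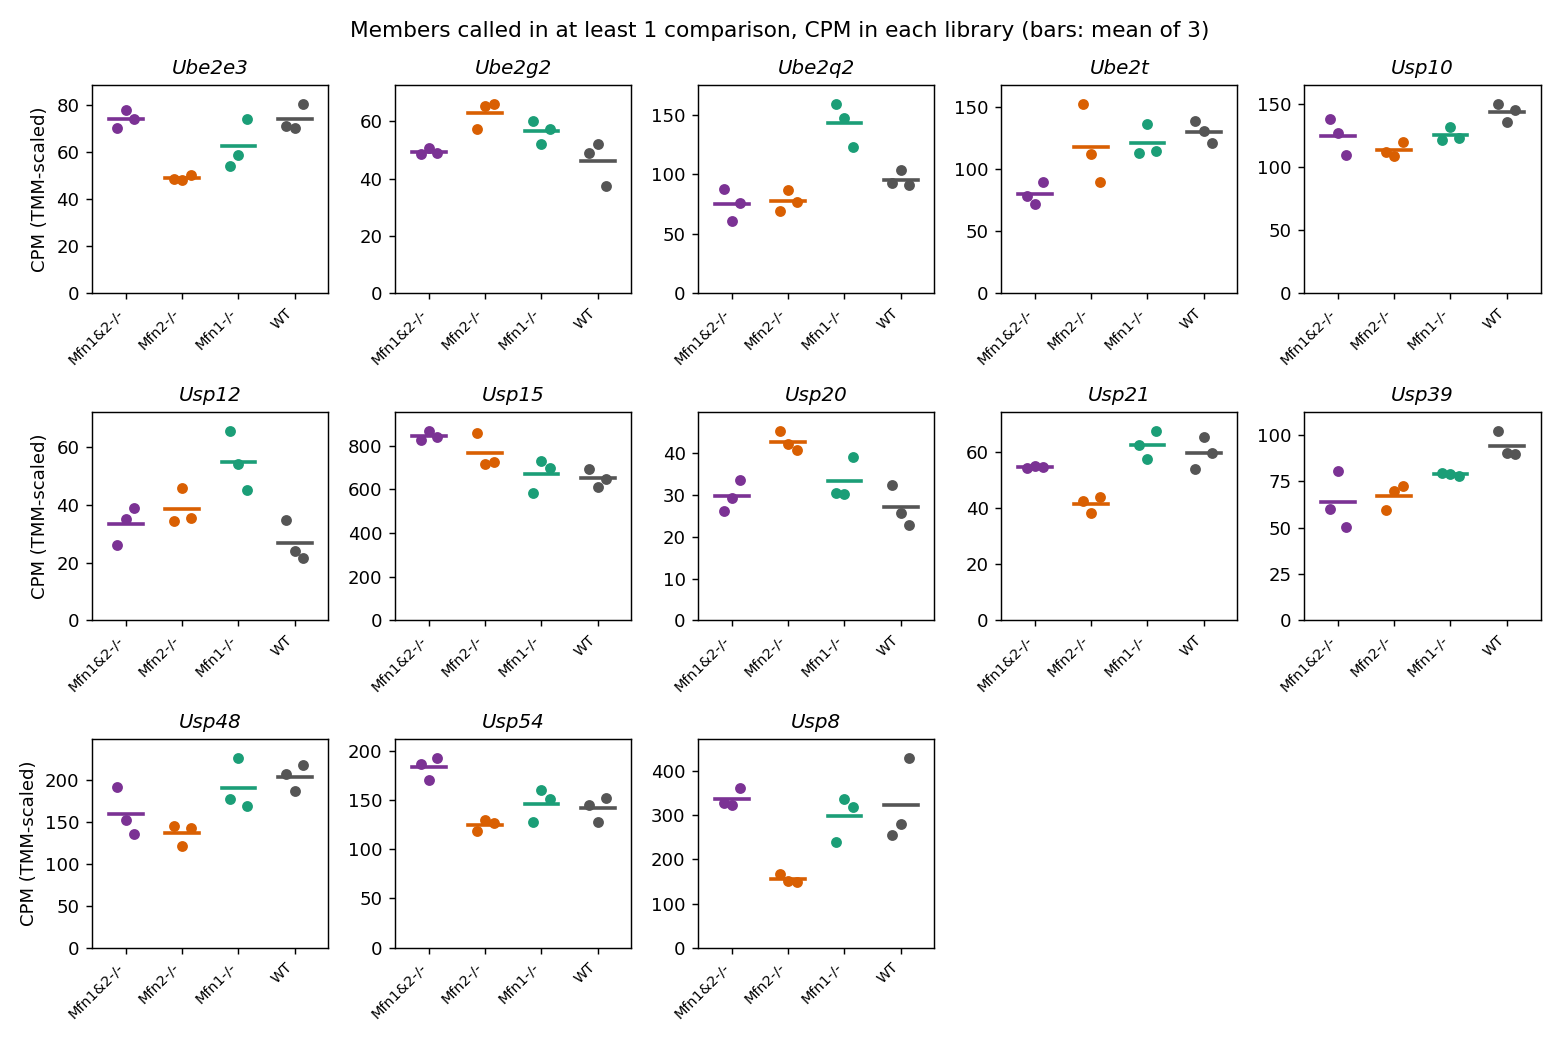
CPM in each library for the 13 genes called in at least 1 comparison; points are libraries, bars the mean of 3, and every axis starts at 0. Usp8 and Ube2e3 are low in Mfn2-/- libraries, Ube2t is low in Mfn1&2-/- libraries and Ube2q2 is high in Mfn1-/- libraries.

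Loss of both mitofusins changed few of these genes. In Mfn1&2-/- oocytes against WT 3 of 79 genes were called (3.8%), against 4.21% of all genes. They were Ube2t and Usp39, both lower, and Usp15, which was higher. That is 1 gene higher and 2 lower, against 2.1% of all genes higher and 2.11% lower. Among 69 genes with at least 10 CPM in some group, 63 lay within 0.5 of 0 on the log2 scale and none reached a log2 fold change of 1 in either direction. DESeq2 called 5 of 79 genes (6.33%, against 7.33% of all genes). The 3 Mfn1&2-/- libraries did not overlap with the WT libraries for 13 of 79 genes (16.5%), against 22.1% of all genes. The median log2 fold change was 0.07 for Ube2 and -0.01 for Usp genes, and 0.00 over all genes.

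Ube2t works with the ligase Fancl to monoubiquitinate Fancd2 at damaged DNA. It stood at 78.4, 71.8 and 89.2 CPM in Mfn1&2-/- libraries, against 138.8, 130.5 and 120.8 CPM in WT libraries. Every Mfn1&2-/- library was below every WT library, and Ube2t fell to 61.4% of WT (log2 fold change -0.70 ± 0.16, adjusted p = 0.019). Without Mfn1&2-/- replicate 2, WT replicate 1 or WT replicate 2 the log2 fold change was -0.63, -0.66 and -0.70, with adjusted p of 0.085, 0.0594 and 0.0554; over all 19 alternatives the adjusted p ran from 0.000918 to 0.085. Usp1, whose protein takes the ubiquitin off Fancd2 again, had a log2 fold change of 0.02 ± 0.17 in the same comparison (0.25 without WT replicate 3, adjusted p = 0.478).

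Usp15 encodes a deubiquitinase of TGF-beta receptor signalling that can counter parkin on mitochondria. It stood at 825.6, 866.1 and 837.0 CPM in Mfn1&2-/- libraries and at 691.1, 610.1 and 648.1 CPM in WT libraries. The groups did not overlap, and Usp15 was 1.30-fold higher in Mfn1&2-/- oocytes (log2 fold change 0.38 ± 0.10, adjusted p = 0.0427). Usp39, the splicing factor, stood at 60.0, 80.7 and 50.6 CPM in Mfn1&2-/- libraries and at 102.1, 90.2 and 89.6 CPM in WT libraries. The groups did not overlap and Usp39 fell to 67.9% of WT (log2 fold change -0.56 ± 0.15, adjusted p = 0.0449). Both calls lay close to the threshold. That of Usp15 was lost without any of 8 libraries (each Mfn1&2-/- and WT library, Mfn2-/- replicate 3 and Mfn1-/- replicate 3), with a log2 fold change of 0.33 to 0.42 and an adjusted p up to 0.141. That of Usp39 was lost without any of 10 libraries (all but Mfn1&2-/- replicate 2 and Mfn2-/- replicate 1), with log2 fold changes of -0.77 to -0.42 over the 12 fits and an adjusted p up to 0.17. Without WT replicate 3 the calls were 1 Ube2 and 0 Usp genes.

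**Figure D3:**
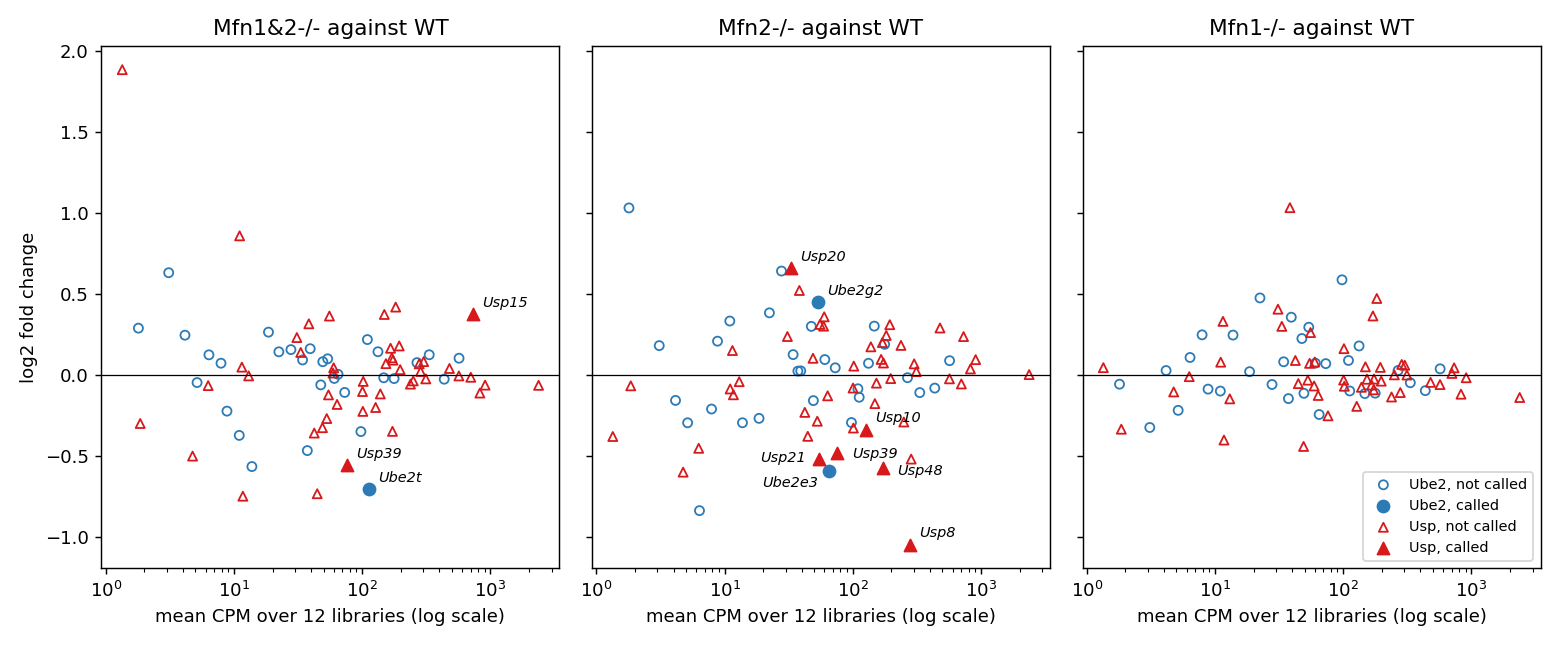
Log2 fold change against WT of each gene, by its mean CPM over 12 libraries (log axis), in Mfn1&2-/- (left), Mfn2-/- (centre) and Mfn1-/- oocytes (right); circles are Ube2, triangles Usp genes, and filled, named symbols were called. Called genes number 3, 8 and 0, and Usp8 at -1.05 is the lowest of them.

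Loss of Mfn2 alone changed more, as it did among all genes. In Mfn2-/- oocytes against WT 8 of 79 genes were called (10.1%), against 11.4% of all genes. Of the Ube2 genes, Ube2g2 rose and Ube2e3 fell. Of the Usp genes, Usp20 rose, and Usp8, Usp21, Usp48, Usp10 and Usp39 fell. That is 2.53% of the 79 genes higher and 7.59% lower, against 4.52% and 6.87% of all genes. Among the 69 genes with at least 10 CPM in some group, 61 lay within 0.5 of 0 on the log2 scale, and only Usp8 went past 1. DESeq2 called 12 of 79 genes (15.2%, against 14.9% of all genes). The Mfn2-/- and WT libraries did not overlap for 24 of 79 genes (30.4%), against 32% of all genes. Scaled by library size only, Usp calls were 4 higher and 3 lower, in place of 1 and 5. Without WT replicate 3 the calls were 1 Ube2 (Ube2e3) and 2 Usp genes, all lower; without Mfn2-/- replicate 2 they were 1 and 1. The summed oocyte markers of Mfn2-/- libraries, as given above, lay above those of WT libraries, and 6 of 16 were called higher.

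Usp8 encodes a deubiquitinase of endosomes that acts on internalised receptors and on the sorting machinery. It lies at chr2:126707328-126759297 on the plus strand. It stood at 166.3, 151.0 and 149.7 CPM in Mfn2-/- libraries, against 256.0, 281.1 and 429.1 CPM in WT libraries. The 3 Mfn2-/- libraries were the lowest of all 12, and the highest was WT replicate 3. Usp8 fell to 48.3% of WT (log2 fold change -1.05 ± 0.16, 95% interval -1.40 to -0.70, adjusted p = 0.000951). Without WT replicate 3 the log2 fold change was -0.79 with an adjusted p of 0.00207, and the call held without each of the 12 libraries in turn (adjusted p up to 0.00623 over all 19 alternatives).

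Ube2e3, a ubiquitin E2 with an N-terminal extension, also fell. It stood at 48.6, 48.2 and 50.2 CPM in Mfn2-/- libraries and at 71.2, 70.0 and 80.4 CPM in WT libraries. The groups did not overlap and Ube2e3 fell to 66.3% of WT (log2 fold change -0.59 ± 0.13, adjusted p = 0.00858). The call held under all 19 alternatives, with an adjusted p up to 0.0392.

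Ube2g2 is the E2 of ER-associated degradation. It stood at 57.3, 65.4 and 66.1 CPM in Mfn2-/- libraries and at 49.1, 52.1 and 37.3 CPM in WT libraries, the last being WT replicate 3. Ube2g2 was 1.36-fold higher (log2 fold change 0.45 ± 0.14, adjusted p = 0.0477). Without WT replicate 3 the log2 fold change was 0.31 with an adjusted p of 0.178, the highest over its 19 alternatives, and the call was lost without any of 10 libraries (all but Mfn1&2-/- replicate 1 and WT replicate 2). The exons of Ube2g2 overlap 6.83% with Gm49325 on the same strand.

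Usp20, a deubiquitinase first described as a target of the von Hippel-Lindau protein, stood at 45.3, 42.1 and 40.6 CPM in Mfn2-/- libraries and at 32.4, 25.7 and 22.9 CPM in WT libraries. It was higher in every Mfn2-/- library than in any other of the 12, and rose 1.58-fold over WT (log2 fold change 0.66 ± 0.17, adjusted p = 0.0214). The call was lost without any Mfn2-/- library, WT replicate 2 or WT replicate 3, at log2 fold changes of 0.55 to 0.69 and an adjusted p up to 0.0849.

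Usp21, whose protein removes ubiquitin from histone H2A, stood at 42.5, 38.3 and 43.9 CPM in Mfn2-/- libraries and at 53.9, 65.3 and 59.5 CPM in WT libraries. These groups did not overlap, and Usp21 fell to 69.8% of WT (log2 fold change -0.52 ± 0.12, adjusted p = 0.0136). Usp48, a nuclear deubiquitinase that also acts on histone H2A, stood at 145.4, 120.7 and 142.4 CPM in Mfn2-/- libraries and at 206.4, 186.1 and 217.0 CPM in WT libraries. It fell to 67.0% of WT without overlap (log2 fold change -0.58 ± 0.14, adjusted p = 0.0141). Usp48 lies 10215062 bases from Mfn2 on chromosome 4, and the part of this position in the difference was not tested. Without Mfn2-/- replicate 2 the adjusted p was 0.067 for each of the 2 genes (log2 fold change -0.46 for Usp21 and -0.50 for Usp48). It was 0.0565 for Usp21 without WT replicate 2 (log2 fold change -0.45) and 0.0552 for Usp48 without WT replicate 3 (log2 fold change -0.53).

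Usp10, a deubiquitinase of p53 that binds the stress-granule protein G3bp1, stood at 112.6, 109.3 and 119.8 CPM in Mfn2-/- libraries and at 150.5, 136.4 and 145.6 CPM in WT libraries. It fell to 79.0% of WT (log2 fold change -0.34 ± 0.10, adjusted p = 0.0398). Usp39 stood at 59.7, 69.8 and 72.4 CPM in Mfn2-/- libraries, all below the WT libraries given above, and fell to 71.6% of WT (log2 fold change -0.48 ± 0.15, adjusted p = 0.047). The groups of both genes did not overlap, but both calls lay near the threshold. That of Usp10 was lost without any of 8 libraries (each Mfn2-/- and WT library, Mfn1&2-/- replicate 2 and Mfn1-/- replicate 3), with an adjusted p up to 0.131 and log2 fold changes of -0.39 to -0.31. That of Usp39 was lost without any of 8 (each Mfn2-/- and WT library, Mfn1-/- replicate 2 and Mfn1-/- replicate 3), with an adjusted p up to 0.157 and log2 fold changes of -0.55 to -0.40. Usp39 was lower in both Mfn2-/- and Mfn1&2-/- oocytes than in WT, 2 comparisons that share the WT libraries.

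Usp1 fell short of the threshold in Mfn2-/- oocytes. It stood at 211.0, 196.4 and 228.3 CPM in Mfn2-/- libraries and at 283.4, 236.1 and 393.1 CPM in WT libraries. The groups did not overlap, and the log2 fold change was -0.52 ± 0.17 with an adjusted p of 0.058 in edgeR; DESeq2's adjusted p was 0.0156. WT replicate 3 is the highest of these values. Without it the log2 fold change was -0.29 with an adjusted p of 0.294, and over the alternatives the adjusted p ran from 0.0156 to 0.294.

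Loss of Mfn1 alone gave no call. In Mfn1-/- oocytes against WT 0 of 31 Ube2 and 0 of 48 Usp genes passed in edgeR, against 0.228% of all genes (0.0703% higher and 0.158% lower). At an unadjusted p below 0.05 there were 3 Ube2 and 5 Usp genes (10.1% of 79, against 12.8% of all genes), and DESeq2 called 1 Ube2 and 2 Usp genes (3.8% of 79, against 1.97% of all genes). Among the 69 genes with at least 10 CPM in some group, 67 lay within 0.5 of 0 on the log2 scale. Libraries did not overlap for 10 of 79 genes (12.7%), against 18.1% of all genes. The largest difference was that of Usp12, which encodes a deubiquitinase that needs the partner Uaf1. Usp12 stood at 65.4, 53.9 and 45.1 CPM in Mfn1-/- libraries and at 34.8, 24.0 and 21.6 CPM in WT libraries, without overlap. The log2 fold change was 1.03 ± 0.21, with an adjusted p of 0.0635 in edgeR and 0.000766 in DESeq2 (0.90 and 0.182 in edgeR without WT replicate 3). Ube2q2, a ubiquitin E2, stood at 159.1, 147.5 and 122.6 CPM in Mfn1-/- libraries and at 92.2, 103.2 and 90.6 CPM in WT libraries, again without overlap. Its log2 fold change was 0.59 ± 0.14, with an adjusted p of 0.0992 in edgeR and 0.00807 in DESeq2 (0.55 and 0.258 in edgeR without WT replicate 3). The remaining DESeq2 call was Usp31, with a log2 fold change of 0.36 (adjusted p = 0.0267).

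The 2 comparisons of Mfn1&2-/- with a single knockout showed which genes differed once the other mitofusin was lost as well. In Mfn1&2-/- against Mfn1-/- oocytes 2 of 79 genes were called (2.53%, against 5.36% of all genes), both of them E2 genes that were lower, with 2.76% of all genes higher and 2.6% lower. Libraries did not overlap for 18 of 79 genes (22.8%), against 26% of all genes. Ube2q2 stood at 87.5, 60.9 and 76.0 CPM in Mfn1&2-/- libraries, well below the Mfn1-/- values just given. It was 52.3% of the Mfn1-/- level (log2 fold change -0.94 ± 0.14, adjusted p = 0.00103), and the call held under all 19 alternatives (adjusted p up to 0.00726). Ube2t stood at 113.0, 136.4 and 114.3 CPM in Mfn1-/- libraries, above every Mfn1&2-/- library given above. Its log2 fold change was -0.60 ± 0.16 (adjusted p = 0.0369). This call was lost without Mfn1&2-/- replicate 1, Mfn1&2-/- replicate 2 or any Mfn1-/- library, at log2 fold changes of -0.67 to -0.51 and an adjusted p up to 0.136. No Usp gene was called in edgeR; 9 of 48 had an unadjusted p below 0.05 (18.8%, against 20.7% of all genes), and DESeq2 called 5 (10.4%, against 9.18% of all genes).

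In Mfn1&2-/- against Mfn2-/- oocytes 4 of 79 genes were called (5.06%, against 10.2% of all genes). Usp8, Usp54 and Ube2e3 were higher and Ube2t was lower, with 6.14% of all genes higher and 4.08% lower. Libraries did not overlap for 28 of 79 genes (35.4%), against 31.5% of all genes. DESeq2 called 9 of the 76 genes it gave an adjusted p (11.8%, against 14.7% of all genes). Scaled by library size only, Usp calls were 2 higher and 3 lower, and without WT replicate 3 they were 4 higher and 1 lower, in place of 2 and 0. Usp8 stood at 328.5, 322.8 and 360.8 CPM in Mfn1&2-/- libraries, all above the Mfn2-/- libraries given above. Usp8 was 2.17-fold higher (log2 fold change 1.12 ± 0.16, adjusted p = 0.000842). Ube2e3 stood at 70.1, 77.6 and 74.2 CPM in Mfn1&2-/- libraries, all above the Mfn2-/- libraries (log2 fold change 0.59 ± 0.13, adjusted p = 0.00942). Both genes were close to WT in Mfn1&2-/- oocytes, with log2 fold changes against WT of 0.07 (95% interval -0.27 to 0.41) for Usp8 and 0.00 (95% interval -0.27 to 0.27) for Ube2e3; without WT replicate 3 they were 0.33 (adjusted p = 0.21) and 0.07 (adjusted p = 0.875). Usp54 stood at 186.3, 170.1 and 192.3 CPM in Mfn1&2-/- libraries and at 118.8, 129.6 and 126.2 CPM in Mfn2-/- libraries, without overlap (log2 fold change 0.55 ± 0.11, adjusted p = 0.0043). The exons of Usp54 overlap 6.4% with an antisense gene. These 3 calls held without each of the 12 libraries.

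Ube2t was more variable in Mfn2-/- oocytes, at 152.4, 112.4 and 89.3 CPM, and the lowest of these lay just above the highest Mfn1&2-/- library. Its log2 fold change for Mfn1&2-/- against Mfn2-/- was -0.57 ± 0.16 (adjusted p = 0.034). Without Mfn2-/- replicate 1 it was -0.34 (adjusted p = 0.164), and the call was also lost without Mfn1&2-/- replicate 1, Mfn1&2-/- replicate 2 and Mfn2-/- replicate 2, at -0.55, -0.49 and -0.60 (adjusted p = 0.0754, 0.119 and 0.0679).

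Loss of Mfn2 can be compared between oocytes that lack and that have Mfn1, in pairs of groups that share no library. The interaction is the log2 fold change of Mfn1&2-/- over Mfn1-/- minus that of Mfn2-/- over WT. It was called for 3 of 79 genes (3.8%, against 4.13% of all genes), namely Usp8 and Ube2e3 with a positive sign and Usp12 with a negative one (2.92% and 1.2% of all genes). DESeq2 called 8 of the 78 genes it gave an adjusted p (10.3%, against 8.26% of all genes). For Usp8 the loss of Mfn2 gave 0.18 ± 0.16 without Mfn1 and -1.05 ± 0.16 with it on the log2 scale, an interaction of 1.23 ± 0.23 (adjusted p = 0.011). The Mfn1-/- libraries, at 240.3, 336.9 and 317.7 CPM, overlapped with both the Mfn1&2-/- and the WT libraries. The interaction of Usp8 held without each library, at 0.96 and an adjusted p of 0.0128 without WT replicate 3, and over 18 alternatives its adjusted p reached 0.033. Levels of Ube2e3 in Mfn1-/- libraries, at 54.0, 58.8 and 74.2 CPM, overlapped with those in both Mfn1&2-/- and WT libraries. Their log2 fold change against WT was -0.25 ± 0.13 (adjusted p = 0.445). For Ube2e3 the 2 effects of Mfn2 loss were 0.25 ± 0.13 without Mfn1 and -0.59 ± 0.13 with it, an interaction of 0.84 ± 0.18 (adjusted p = 0.021). This call was lost without Mfn1&2-/- replicate 2, Mfn2-/- replicate 2, Mfn1-/- replicate 1 or WT replicate 3, at 0.80, 0.83, 0.74 and 0.77 (adjusted p = 0.0527, 0.0555, 0.0592 and 0.0518).

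Usp12 showed the opposite sign. It stood at 26.0, 35.2 and 38.8 CPM in Mfn1&2-/- libraries, below all Mfn1-/- libraries given above, and at 34.3, 45.8 and 35.4 CPM in Mfn2-/- libraries, which overlapped with WT. On the log2 scale the loss of Mfn2 gave -0.72 ± 0.21 without Mfn1 and 0.52 ± 0.21 with it, an interaction of -1.24 ± 0.30 (adjusted p = 0.0334). Neither effect passed by itself, with adjusted p of 0.0558 and 0.125. The interaction call was lost without any of 8 libraries (all but Mfn1&2-/- replicate 3, Mfn2-/- replicate 1, Mfn1-/- replicate 3 and WT replicate 1), at values of -1.30 to -1.09 and an adjusted p up to 0.0904. Across the 79 genes the 2 effects of Mfn2 loss had a Pearson r of 0.04 and a Spearman rho of 0.08, against 0.43 and 0.15 across all genes, and 40 of 79 had the same sign (50.6%, against 53.5%). Taken apart, 11 of 31 Ube2 genes (35.5%, r 0.15, rho -0.05) and 29 of 48 Usp genes (60.4%, r -0.02, rho 0.21) had the same sign. These are descriptions across genes, which are not replicates.

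**Figure D4:**
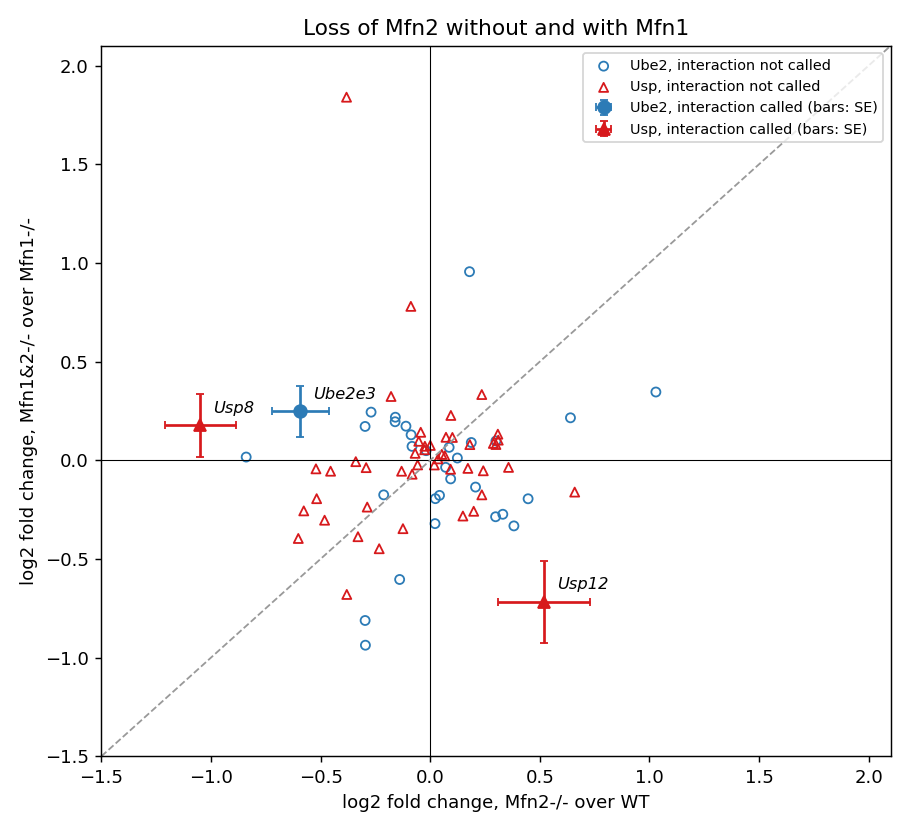
Log2 fold change of each gene on loss of Mfn2 in oocytes that lack Mfn1 (Mfn1&2-/- over Mfn1-/-, vertical) and in oocytes that have it (Mfn2-/- over WT, horizontal); circles are Ube2, triangles Usp genes, filled symbols with SE bars had a called interaction, and the dashed line marks equal effects. Usp8 and Ube2e3 lie above the line with interactions of 1.23 and 0.84, and Usp12 lies below it at -1.24.

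The genes described next, of known duties in mitochondria, in meiosis or at the proteasome, were called in none of the 6 comparisons. Usp30, the deubiquitinase of the outer mitochondrial membrane that opposes parkin, stood at 307.6 ± 24.4 CPM in Mfn1&2-/-, 304.6 ± 13.7 in Mfn2-/-, 302.8 ± 10.1 in Mfn1-/- and 290.8 ± 20.9 in WT oocytes. Its log2 fold changes against WT were 0.08 (95% interval -0.11 to 0.27), 0.07 (-0.12 to 0.25) and 0.06 (-0.13 to 0.24) in the same order; its exons overlap 5.43% with Alkbh2 on the opposite strand. Usp9x had log2 fold changes of -0.07 ± 0.09 in Mfn1&2-/-, 0.00 ± 0.09 in Mfn2-/- and -0.14 ± 0.09 in Mfn1-/- oocytes against WT. Usp14, the deubiquitinase of the proteasome, had log2 fold changes of 0.36 ± 0.17, 0.31 ± 0.17 and 0.26 ± 0.17, with adjusted p of 0.253, 0.256 and 0.544. Without WT replicate 3 they were 0.55, 0.50 and 0.45, with adjusted p of 0.092, 0.0856 and 0.384; 26.0% of its exons are shared with Thoc1 on the opposite strand. Usp13, a low gene that lies 238307 bases from Mfn1 on chromosome 3, averaged 4.07 CPM in Mfn1&2-/-, 3.81 in Mfn2-/-, 5.36 in Mfn1-/- and 5.79 in WT oocytes, with no call.

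The APC/C uses Ube2c to start ubiquitin chains and Ube2s to lengthen them. Ube2c was low, at 7.74, 7.43 and 7.19 CPM in Mfn1&2-/-, 2.46, 5.23 and 3.82 in Mfn2-/-, 11.2, 6.4 and 4.5 in Mfn1-/- and 5.75, 9.95 and 4.84 in WT libraries. Only the Mfn1&2-/- and Mfn2-/- libraries did not overlap, with a log2 fold change of 0.96 ± 0.40 and an adjusted p of 0.136; 22.8% of its exons are shared with Tnnc2 on the opposite strand. Ube2s stood at 122.4 ± 8.37 CPM in Mfn1&2-/-, 99.2 ± 7.61 in Mfn2-/-, 112.0 ± 12.5 in Mfn1-/- and 105.4 ± 17.2 in WT oocytes, with no call. Ube2d3, an E2 that serves many ligases, varied by at most 0.10 on the log2 scale against WT. Ube2n, which builds signalling chains with Ube2v1 or Ube2v2, had log2 fold changes of -0.02, 0.09 and 0.07 in Mfn1&2-/-, Mfn2-/- and Mfn1-/- oocytes. The NEDD8 E2 Ube2m, which serves the cullins, had 0.14 ± 0.17, 0.38 ± 0.17 and 0.47 ± 0.17, with adjusted p of 0.738, 0.178 and 0.265.

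The 66 genes without a call are given by their extremes, which were named after their values were seen. Against WT their log2 fold changes ran from -0.75 (Usp26) to 1.88 (Usp17le) in Mfn1&2-/-, from -0.84 (Ube2c) to 1.03 (Ube2v2) in Mfn2-/- and from -0.44 (Usp45) to 0.47 (Ube2m) in Mfn1-/- oocytes. Usp17le, of a multigene family whose counts are uncertain, stood at 1.35, 3.02 and 4.77 CPM in Mfn1&2-/- and at 1.20, 0.506 and 0.752 CPM in WT libraries, with an adjusted p of 0.327.

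Other genes of the ubiquitin system were counted in 7 lists. Against WT in Mfn1&2-/- oocytes, 2 of 23 HECT ligases and 2 of 24 cullin-RING genes were called, against 4.21% of all genes, and 0 of 9 E1 enzymes, 18 APC/C genes, 30 other deubiquitinases, 8 SUMO proteases and 7 mitochondrial ligases were (2, 0, 5, 0 and 1 at an unadjusted p below 0.05 in edgeR; 1, 0, 2, 0 and 0 by DESeq2). In Mfn2-/- oocytes 2 HECT ligases, 5 cullin-RING genes, 1 APC/C gene and 1 SUMO protease were called, against 11.4% of all genes, and no E1 enzyme, other deubiquitinase or mitochondrial ligase was (1, 8 and 0 at an unadjusted p below 0.05; 0, 1 and 0 by DESeq2). In Mfn1-/- oocytes no gene of the 7 lists was called in edgeR, against 0.228% of all genes, with 4 HECT ligases, 3 cullin-RING genes, 3 APC/C genes, 1 other deubiquitinase and 1 mitochondrial ligase at an unadjusted p below 0.05. DESeq2 called 1 HECT ligase and 1 APC/C gene lower and 1 other deubiquitinase higher. The list medians lay between -0.18 and 0.18 on the log2 scale in these comparisons, against 0.00, 0.01 and -0.01 over all genes. Against Mfn1-/-, Mfn1&2-/- oocytes had 1 E1 enzyme, 2 HECT ligases and 1 cullin-RING gene called lower. Called higher were 1 APC/C gene and 1 mitochondrial ligase (Fbxo7, log2 fold change 0.95 ± 0.19, adjusted p = 0.00829), against 5.36% of all genes. Against Mfn2-/-, 1 E1 enzyme, 4 HECT ligases and 1 cullin-RING gene were lower. APC/C genes gave 2 higher and 1 lower, other deubiquitinases 1 and 2, and SUMO proteases 1 and 1, against 10.2% of all genes. The interaction was called for 2 APC/C genes and 1 SUMO protease with a positive sign and 1 cullin-RING gene with a negative one. No gene of the other lists was called in it, against 4.13% of all genes.

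Ubb, a gene of ubiquitin itself, stood at 32.5, 27.0 and 31.4 CPM in Mfn2-/- libraries and at 44.7, 76.9 and 55.8 CPM in WT libraries, without overlap (log2 fold change -0.96 ± 0.20, adjusted p = 0.00678), and was called without each library. Mfn1&2-/- oocytes held Ubb at 69.2 ± 12.1 CPM, called higher than in Mfn2-/- oocytes (log2 fold change 1.19 ± 0.20, adjusted p = 0.00229). The interaction of Ubb was also called (1.18 ± 0.28, adjusted p = 0.0337). The ubiquitin repeats of Ubb are alike in sequence, so its counts are uncertain. Of the ligases, Nedd4l fell in Mfn1&2-/- oocytes to 45.9 ± 10.9 CPM, against 124.4 ± 32.8 CPM in WT (log2 fold change -1.44 ± 0.21, adjusted p = 0.000944). Nedd4 fell in Mfn2-/- oocytes to 50.7 ± 22.4 CPM, against 155.2 ± 61.7 CPM in WT (log2 fold change -1.61 ± 0.34, adjusted p = 0.00727). Without a call against WT in edgeR, Nedd4 stood at 69.2 ± 28.8 CPM in Mfn1&2-/- and Nedd4l at 81.4 ± 16.7 CPM in Mfn2-/- oocytes. Senp1, a SUMO protease, fell in Mfn2-/- oocytes to 227.0 ± 34.7 CPM, against 449.8 ± 40.3 CPM in WT (log2 fold change -0.99 ± 0.13, adjusted p = 0.000341). Mfn1&2-/- oocytes held Senp1 at 374.7 ± 71.2 CPM, called higher than in Mfn2-/- oocytes (log2 fold change 0.72 ± 0.13, adjusted p = 0.00364). The interaction of Senp1 was also called (0.79 ± 0.19, adjusted p = 0.0324). The calls of Nedd4l, Nedd4 and Senp1 against WT held without each library. So did that of Vprbp, the cullin substrate receptor Dcaf1, in Mfn2-/- oocytes (log2 fold change -0.57 ± 0.11, adjusted p = 0.00538). Vprbp was also called lower in Mfn1&2-/- against WT (-0.48 ± 0.11, adjusted p = 0.0262) and against Mfn1-/- oocytes (-0.47 ± 0.11, adjusted p = 0.0263). Each of these Mfn1&2-/- calls was lost without any of 4 libraries. Mean levels of Vprbp were 313.2 CPM in Mfn1&2-/-, 294.0 in Mfn2-/-, 432.6 in Mfn1-/- and 435.5 in WT oocytes.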

How the data were processed

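RNA-seq of 12 pools of 50 GV oocytes, 3 for each of 4 genotypes, was deposited as a table of raw counts per gene and a table of normalised signal. Reads were checked with FastQC 0.11.7 and aligned with STAR 2.7.0a to mm10, and edgeR was used, per the submitters' processing notes. Not given in the sources used here were the gene annotation, how strand was counted, and how multi-mapping reads were handled. In the deposited count table all 11385 genes exceed 1 CPM in at least 3 libraries. The deposited signal values equal TMM-scaled CPM of those counts within a relative 5.1e-15 and were used only for that check. One library labelled "Mn2-/-" was placed in Mfn2-/- by its description.

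Counts were fitted with edgeR 4.0.16 (R 4.3.3, limma 3.58.1; TMM, filterByExpr, quasi-likelihood test, 1 mean per group, 8 residual degrees of freedom), and p-values were adjusted by Benjamini-Hochberg over 11385 genes. The standard error is the log2 fold change over the root of its F statistic. Exon lengths and overlaps came from GENCODE vM21. The script was tested on simulated data. Libraries held 11575357 to 16024893 counts; floors cover counting error only. Alternatives were RLE scaling, library size only, DESeq2 1.42.0, no filter, at least 5 CPM in 3 libraries, a replicate block, only the groups compared, and leaving out each library. Ube2 and Usp genes named were those called in any comparison, the 5 highest per kb in each family and chosen genes of known role. Of the lists, only some of the strongest calls were named. Others are said to be named after their values were seen. Usp31, Usp25 and Ube2v2 are among the latter. The members and lists were chosen with earlier results of these data known. Some genes of these families and lists are not reported here.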

Additional observations from a re-analysis of the deposited data

Results flagged for a closer look

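For 3 genes the effect of Mfn2 loss differed between oocytes without and with Mfn1 by edgeR's test of the difference itself (adjusted p below 0.05 over all genes). The difference on the log2 scale was 1.23 for Usp8, 0.84 for Ube2e3 and -1.24 for Usp12. It was called without each library for Usp8, and was lost without 4 of 12 libraries for Ube2e3 and without 8 for Usp12, WT replicate 3 among both.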

How the results depend on the processing

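Whether replicate numbers pair the libraries was not settled. The 18 same-numbered pairs had correlations of -0.134 to 0.179, 4 of them over 0.1, against -0.26 to 0.183 for pairs with different numbers. Of 12 libraries, 7 correlated best with their own number. The other numbers in the column headers were not tried. With the replicate block the calls were 0 Usp in Mfn1&2-/- against WT (2 without it), 1 Ube2 and 4 Usp in Mfn2-/- against WT (2 and 6), 1 Ube2 and 3 Usp in Mfn1&2-/- against Mfn2-/- (2 and 2) and 1 Usp in the interaction (2), where Usp12 had an adjusted p of 0.0544.

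DESeq2 called 4 Usp in Mfn1&2-/- against WT (2 in edgeR), 10 Usp in Mfn2-/- against WT (6), 1 Ube2 and 2 Usp in Mfn1-/- against WT (0 and 0), 5 Usp in Mfn1&2-/- against Mfn1-/- (0), 6 Usp in Mfn1&2-/- against Mfn2-/- (2), and 3 Ube2 and 5 Usp in the interaction (1 and 2). RLE scaling, and fitting only the groups compared, left 1 Ube2 in Mfn2-/- against WT. Library size only, and only the groups compared, each gave 1 Usp in Mfn1&2-/- against Mfn1-/- and 5 in Mfn1&2-/- against Mfn2-/-. Library size only moved the all-gene interaction median to -0.12 (-0.01 with TMM) and the share of all calls that were higher to 49.8% (39.7%) in Mfn2-/- against WT, 38.5% (51.5%) and 48.2% (60.1%) in Mfn1&2-/- against Mfn1-/- and Mfn2-/-, and 46.3% (70.9%) in the interaction. The causes were not tested.

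Leaving out each library gave 0 to 2 Ube2 and 0 to 3 Usp calls in Mfn1&2-/- against WT, 1 to 3 and 1 to 8 in Mfn2-/- against WT, 0 to 0 and 0 to 1 in Mfn1-/- against WT, 1 to 2 and 0 to 2 in Mfn1&2-/- against Mfn1-/-, 1 to 3 and 2 to 5 in Mfn1&2-/- against Mfn2-/-, and 0 to 2 and 1 to 3 in the interaction. No call changed direction: of 377 alternative values for the 20 calls 286 stayed past the threshold and 91 did not, and of 3126 for named results without a call 42 passed it. No filter gave the same values, since every gene passed. The interaction cannot be fitted with only the groups compared, since it uses all 4.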
